A study of Mus musculus with 6 samples.

Results

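The 40 genes described here respond to interferons, the cytokines that put cells into an antiviral state, or belong to the receptor that starts that response. They were taken by symbol from a table of 20938 genes, and all 40 were found in it. The data are RNA sequencing of RAW264.7, a mouse macrophage-like cell line able to fuse into osteoclasts, the cells that resorb bone (the labels give bone marrow as its source). Osteoclast induction was shared by all 6 samples: 3 samples (NBIF) were treated with neobavaisoflavone, a plant isoflavone, at 8 µM, and 3 (DMSO) received the same volume of its solvent. The sources used here do not give the inducing agent or the hours of treatment. RAW264.7 is a single line grown in culture, and in bulk RNA fewer cells of a kind and less RNA per cell cannot be told apart. The labels do not say that replicates were separate cultures, so p-values cover no more than the variation among these samples, some of which may be technical.

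Type I interferons bind a receptor made of IFNAR1 and IFNAR2, whose kinases JAK1 and TYK2 act on STAT proteins. STAT2 and IRF9 are part of the factor ISGF3, which binds the interferon-stimulated response element (ISRE) in the promoters of antiviral genes. Interferon gamma acts instead through the gamma-activated site (GAS). In mouse osteoclast precursors the inducing cytokine RANKL also switches on interferon beta, which restrains osteoclast formation, and the transcription factor IRF8 is a repressor of the same process.

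Expression is given in FPKM (fragments scaled to gene length and to the fragments of the library), as deposited. Per sample, all FPKM added up to 484603 to 494172. The number of reads is unknown, but steps between low values put the samples' relative depth at 0.886 to 1.09 times that of DMSO 1. The filter kept genes averaging 1 FPKM or more, and these were tested on log2(FPKM + 1) with limma, and "passed" means a Benjamini-Hochberg adjusted p under 0.05 over 9936 genes. Osteoclast markers such as Ctsk (1724 to 2746 FPKM) and Atp6v0d2 (3514 to 4419 FPKM) were high in all 6 samples, and Calcr stayed at or below 0.306 FPKM. The 14 markers of T, B and NK cells, neutrophils and fibroblasts were at or below 0.319 FPKM, and of 4 markers of the interferon-producing plasmacytoid dendritic cell Siglech was listed at 0 and Ccr9 did not exceed 0.202 FPKM. The others, Tcf4 (21.8 to 26.1 FPKM) and Bst2, which is also among the 40 genes (26.8 to 34.0 FPKM), were expressed in all 6 samples. The 8 macrophage markers summed to between 1422 and 1483 FPKM in NBIF samples, against 2320.2 to 2489 FPKM in DMSO samples. Of these markers 7 were lower with NBIF and the last, Mertk, lay below the filter. The 8 osteoclast markers summed to 5728 to 6549 FPKM with NBIF, against 7471 to 8091 FPKM with DMSO, and 4 of them were lower. The part of these changes in the results on interferon genes was not tested.

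Of the 40 interferon genes, 21 reached the filter and 19 lay below it. Among the 21, 6 rose with NBIF (28.6%), 1 fell (4.76%) and 14 did not pass, while over all 9936 genes 10.5% were higher and 8.08% lower (18.6% in either direction). The genes that rose were Oas3, Parp14, Irf7, Ddx58, Oas1a and Irf9, and the gene that fell was the receptor gene Ifnar1. The median log2 change of the 21 was 0.21, against 0.04 over all tested genes. The genes were chosen with earlier results of these data known, and the list was not tested against these shares. The groups did not overlap, with NBIF higher, for 11 of the 21, beside 24.6% of all tested genes, and with NBIF lower for 2, beside 14.3%. Since the 21 had to be expressed to be tested, these counts say nothing of the 19 others, among which are the usual markers of an interferon response: Isg15, Ifit1, Ifit3, Mx1 and Rsad2 did not exceed 0.375 FPKM in any sample.

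**Figure D1:**
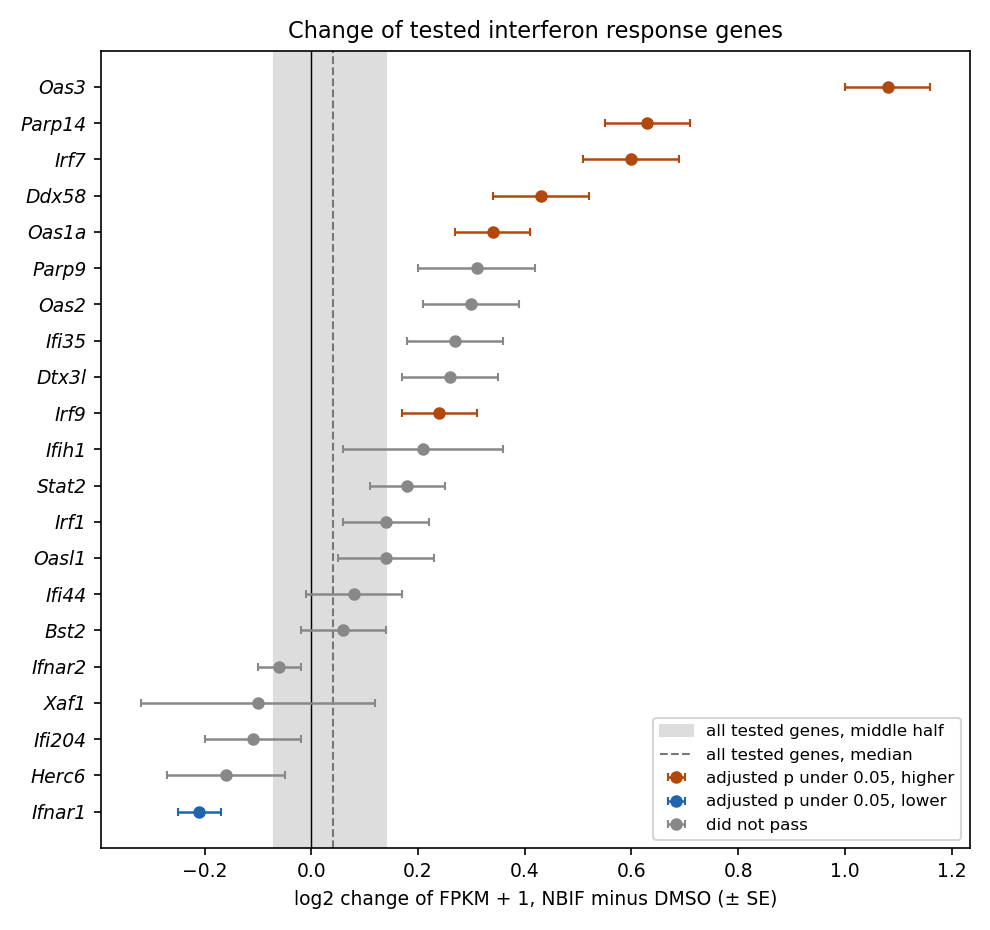
Log2 change of FPKM + 1 (NBIF minus DMSO) with its SE for the 21 tested interferon genes, ordered by size; the grey band runs between the quartiles of all 9936 tested genes (-0.07 and 0.14) and the dashed line marks their median of 0.04. Oas3 stands farthest out at 1.08, and Ifnar1, at -0.21, is the gene that fell.

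Promoter sequences, from RefSeq on GRCm38.p6, were found for 30 of the 40 genes, each covering 250 bases before and 50 after the annotated start. The ISRE core GAAA-NN-GAAA, read on either strand (TTTC-NN-TTTC on the other), occurred in 15 of the 30, against 3.99% of 27025 genes in the same table. The GAS letters TTC-NNN-GAA, which read the same on both strands, occurred in 8 of the 30 (26.7%), against 9.55% of all genes. The windows of Bst2, Gbp5 and Oas1a held both motifs, and whether their matches overlap was not examined. By call, the windows held the ISRE core in 3 of 5 genes that rose with a sequence at hand (Oas3, Oas1a and Ddx58), in 3 of 11 that did not pass and in 9 of 13 below the filter. In Ddx58 the core begins 2 bases after the start, and in Ifih1 32 bases after it. Irf7 and Irf9 rose with no match in these windows. A match describes letters only and does not show binding. The list was chosen as interferon response genes, so its share of matches says nothing about NBIF.

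The promoters of Oas3, the gene with the largest rise, and of Isg15, which was below the filter, are shown as the 250 bases before the start, with ISRE cores in capitals. The Oas3 core begins 75 bases before the start (chr5:120777660-120777909, minus strand), and Isg15 has 3 overlapping cores beginning 78, 72 and 66 bases before it (chr4:156200819-156201068, minus strand).
Oas3: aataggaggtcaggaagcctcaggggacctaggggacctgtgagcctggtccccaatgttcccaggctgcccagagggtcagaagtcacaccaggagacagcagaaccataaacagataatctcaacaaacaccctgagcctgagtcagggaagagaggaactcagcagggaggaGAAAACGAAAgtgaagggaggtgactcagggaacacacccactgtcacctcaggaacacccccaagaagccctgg
Isg15: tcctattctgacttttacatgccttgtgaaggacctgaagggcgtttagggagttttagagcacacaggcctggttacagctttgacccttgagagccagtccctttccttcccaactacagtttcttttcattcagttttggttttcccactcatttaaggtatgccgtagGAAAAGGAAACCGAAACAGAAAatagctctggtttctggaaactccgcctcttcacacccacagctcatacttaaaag

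Windows of 30 bases, chosen because they hold the core, show the bases around it. Oas1a (chr5:120907523-120907552, minus strand) and Ddx58 (chr4:40239804-40239833, minus strand) rose. Stat2 (chr10:128270266-128270295, plus strand) did not pass. Ifit1 (chr19:34640784-34640813, plus strand), Rsad2 (chr12:26456553-26456582, minus strand) and Gbp2 (chr3:142620594-142620623, plus strand) were below the filter.
Oas1a: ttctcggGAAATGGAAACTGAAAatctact
Ddx58: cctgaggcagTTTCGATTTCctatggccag
Stat2: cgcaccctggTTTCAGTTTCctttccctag
Ifit1: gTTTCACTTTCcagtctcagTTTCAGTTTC
Rsad2: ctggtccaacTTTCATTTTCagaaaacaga
Gbp2: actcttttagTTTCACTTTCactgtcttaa

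The receptor genes were by far the most abundant of the 40. Ifnar1, which encodes the chain that recruits TYK2 (chromosome 16, 91485238 to 91507441, GRCm38), had 150.2, 157 and 147 FPKM in NBIF samples, against 179, 178 and 169 FPKM in DMSO samples. Every NBIF sample lay below every DMSO sample, and the log2 change was -0.21 ± 0.04 (SE, limma adjusted p = 0.0141). The call was lost without NBIF 1 (adjusted p = 0.0586), without NBIF 3 (0.0645) and without DMSO 1 (0.0572), with log2 changes of -0.21, -0.19 and -0.20. Ifnar2, the chain that binds ligand with high affinity, had 123, 125 and 117 FPKM with NBIF, against 126, 129 and 126 FPKM with DMSO. Its groups did not overlap either, but the difference was small (log2 change of -0.06, adjusted p = 0.390).

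Among the 4 transcription factor genes, Irf7 and Irf9 rose and Stat2 and Irf1 did not pass. Irf7, the factor that amplifies interferon production in infected cells, had 2.43, 2.08 and 2.25 FPKM in NBIF samples, against 1.35, 0.989 and 1.12 FPKM in DMSO samples. The mean was 1.96-fold higher with NBIF, and the log2 change was 0.60 ± 0.09 (SE, limma adjusted p = 0.00323). At this level the size depends on the pseudocount, being 0.92 with a pseudocount of 0.1 and 0.24 with 5. The gene overlaps Phrf1 by 45 bases on the opposite strand, and Irf9 overlaps Rnf31 by 123 bases on the same strand.

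Irf9, the DNA-binding subunit of ISGF3, had 8.28, 8.12 and 8.26 FPKM with NBIF, against 7.49, 6.68 and 6.24 FPKM with DMSO. The groups did not overlap, but its log2 change of 0.24 passed only just (limma adjusted p = 0.0499). That call was lost in 9 of 15 alternatives, with adjusted p up to 0.132, including median-ratio scaling (0.0884) and every removal of a sample except DMSO 1. Stat2, its partner in ISGF3, had 9.70, 9.67 and 10.6 FPKM with NBIF, against 8.72, 8.05 and 9.28 FPKM with DMSO, also without overlap (log2 change of 0.18, adjusted p = 0.108). Irf1, a factor induced by interferon gamma, had 5.81, 6.15 and 5.03 FPKM with NBIF and 5.28, 4.84 and 4.93 FPKM with DMSO, with overlapping groups (adjusted p = 0.25).

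Of the nucleic acid sensor genes, Ddx58 rose. It encodes RIG-I, a sensor of viral RNA, and had 7.93, 6.85 and 6.51 FPKM in NBIF samples, against 4.87, 5.56 and 4.66 FPKM in DMSO samples. The lowest NBIF sample was above the highest DMSO sample, and the log2 change was 0.43 ± 0.09 (SE, limma adjusted p = 0.0133). The change of Ddx58 passed in all 15 alternatives, with adjusted p up to 0.0496 and a log2 change of 0.27 with a pseudocount of 5.

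Ifih1, which encodes the related RNA sensor MDA5, had 2.43, 1.58 and 1.88 FPKM with NBIF and 2.09, 1.35 and 1.25 FPKM with DMSO. The groups overlapped (log2 change of 0.21 ± 0.15, adjusted p = 0.343). Dhx58, the third gene of this RNA helicase family (LGP2), lay below the filter at 0.671, 0.476 and 0.525 FPKM with NBIF, against 0.317, 0.260 and 0.425 FPKM with DMSO. Its groups did not overlap, and without a filter its adjusted p was 0.0851. Ifi204, a DNA sensor gene of the IFI200 family, had 2.28, 2.37 and 1.94 FPKM with NBIF and 2.16, 2.56 and 2.64 FPKM with DMSO (adjusted p = 0.423), and 20.0% of the 50-base windows of its transcripts also occur in other genes, 14.8% in Ifi211. Zbp1, a sensor of left-handed nucleic acid, did not exceed 0.0292 FPKM.

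The OAS genes encode enzymes that answer double-stranded RNA by making 2'-5' oligoadenylates, which switch on the ribonuclease RNase L. Oas3, whose human counterpart prefers long RNA, showed the largest change of the tested interferon genes. It lies on chromosome 5 (120753098 to 120777661, GRCm38) next to Oas2. Its values were 13.4, 11.1 and 12.0 FPKM in NBIF samples, against 4.92, 5.05 and 5.75 FPKM in DMSO samples. Every NBIF sample was well above every DMSO sample: the means were 12.2 ± 1.14 and 5.24 ± 0.451 FPKM (SD, n = 3 each), a 2.32-fold difference. The log2 change was 1.08 ± 0.08 (SE, limma adjusted p = 0.00012), and it passed in all 15 alternatives, at 0.75 to 1.2.

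Oas1a had 23.4, 24.8 and 23.6 FPKM with NBIF, against 16.7, 20.0 and 19.4 FPKM with DMSO. The groups did not overlap (log2 change of 0.34 ± 0.07, limma adjusted p = 0.0134), and the call was lost without NBIF 2 (adjusted p = 0.0515). Oas1a shares 57.6% of its 50-base transcript windows with Oas1g, so reads of the pair are hard to assign. Oas1g moved alike, with 22.1, 24.7 and 25.1 FPKM in NBIF samples against 16.2, 19.3 and 19.3 FPKM in DMSO samples (log2 change of 0.37, adjusted p = 0.0160).

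Oas2 had 4.24, 3.95 and 3.39 FPKM with NBIF, against 2.74, 2.88 and 3.25 FPKM with DMSO. The groups did not overlap, and its log2 change of 0.30 just missed the threshold (adjusted p = 0.0537). It passed with a robust prior (0.0491), after rescaling to the same sum (0.0472), without NBIF 3 (0.0433) and without DMSO 3 (0.0448). Oasl1, an OAS-like protein that in mice holds back translation of Irf7 mRNA, had 9.62, 10.6 and 8.65 FPKM with NBIF and 8.26, 8.14 and 9.60 FPKM with DMSO. Its groups overlapped (adjusted p = 0.324). Oasl2 had 0.142, 0.126 and 0.0816 FPKM with NBIF and was listed at 0 in all 3 DMSO samples. Below the filter, it passed only in the fit without one (log2 change of 0.16 ± 0.02, SE, limma adjusted p = 0.0131). The 3 DMSO values, all 0, added no spread to that test.

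**Figure D2:**
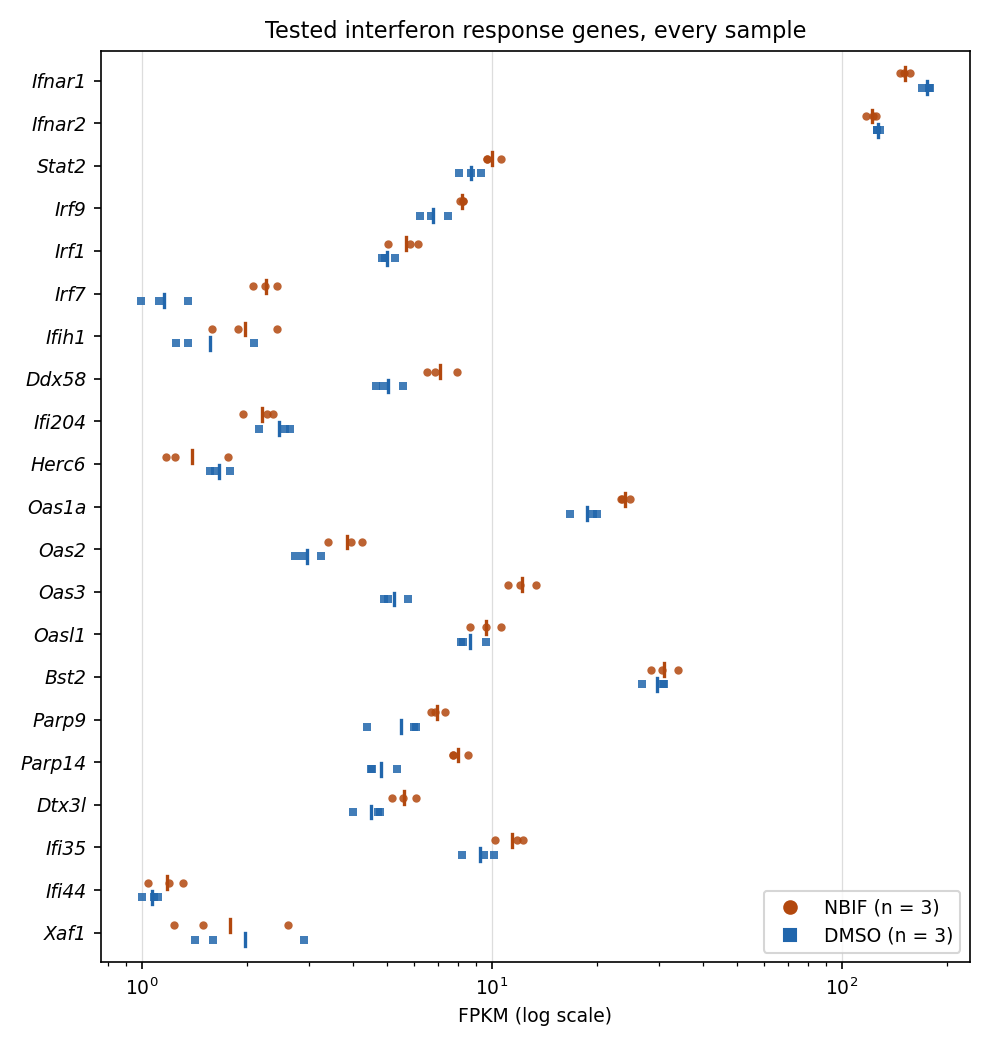
FPKM (log axis) of the 21 tested interferon genes, grouped by role, with circles for the 3 NBIF samples above squares for the 3 DMSO samples and bars at the means. Oas3, Irf7, Parp14 and Ddx58 show groups set apart, while Xaf1, Ifih1 and Bst2 overlap.

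The ADP-ribosylation genes Parp9, Parp14 and Dtx3l lie within one stretch of chromosome 16. Parp14, a mono-ADP-ribosyltransferase, had 8.54, 7.73 and 7.72 FPKM in NBIF samples, against 5.34, 4.55 and 4.52 FPKM in DMSO samples. The groups were well apart, and the log2 change was 0.63 ± 0.08 (SE, limma adjusted p = 0.0012), passing in all 15 alternatives at 0.41 to 0.73. Parp9 had 7.36, 6.86 and 6.70 FPKM with NBIF, against 6.00, 4.40 and 6.07 FPKM with DMSO (log2 change of 0.31, adjusted p = 0.0827). Dtx3l, the ubiquitin ligase that pairs with PARP9, had 5.57, 5.17 and 6.08 FPKM with NBIF, against 4.73, 4.77 and 4.01 FPKM with DMSO (log2 change of 0.26, adjusted p = 0.0640). Neither passed, although neither overlapped, and Dtx3l passed after rescaling to the same sum (adjusted p = 0.0489). Parp9 and Dtx3l start toward each other and overlap by 682 bases on opposite strands, so without a known strand setting reads there cannot be told apart.

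The remaining tested genes did not pass. Bst2 (tetherin, which holds budding virus at the cell surface) was the most abundant antiviral effector, at 34.0, 28.4 and 30.6 FPKM with NBIF and 30.9, 26.8 and 31.1 FPKM with DMSO. Its groups overlapped almost fully (log2 change of 0.06 ± 0.08, adjusted p = 0.627). Ifi35 had 11.8, 10.2 and 12.3 FPKM with NBIF, against 10.1, 8.21 and 9.49 FPKM with DMSO, without overlap (log2 change of 0.27, adjusted p = 0.0739). Herc6, the main ligase for ISG15 in mice, had 1.76, 1.24 and 1.17 FPKM with NBIF and 1.62, 1.78 and 1.56 FPKM with DMSO (log2 change of -0.16, adjusted p = 0.339). Ifi44 had 1.19, 1.31 and 1.04 FPKM with NBIF and 1.08, 1.00 and 1.11 FPKM with DMSO (adjusted p = 0.565). Xaf1, a pro-apoptotic gene, had 2.61, 1.23 and 1.49 FPKM with NBIF and 2.91, 1.59 and 1.42 FPKM with DMSO (adjusted p = 0.797). Replicate 1 was high in both groups for Xaf1, as it was for Ifih1.

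Among the 19 genes below the filter, the highest value in any sample was 0.704 FPKM (Ifit2), and 7 were near 0, meaning under 0.1 FPKM in every sample: Zbp1, Ifit3b, Mx1, Gbp2, Gbp3, Gbp5 and Rtp4. Gbp5, a guanylate-binding protein gene induced by interferon gamma, was listed at 0 in all 6 samples. By contrast, 12 housekeeping genes all had values above 0 in each sample.

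Isg15, a ubiquitin-like modifier and a common marker of interferon signalling, had 0.0996, 0.184 and 0.243 FPKM in NBIF samples, against 0.249, 0.340 and 0.375 FPKM in DMSO samples. The groups did not overlap and NBIF was lower, opposite in direction to Oas3. Without a filter the difference did not pass (log2 change of -0.17, adjusted p = 0.121). Usp18, which removes ISG15 from proteins and damps receptor signalling, had 0.600, 0.594 and 0.490 FPKM with NBIF and 0.385, 0.378 and 0.531 FPKM with DMSO, with overlap.

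The IFIT genes, whose products bind foreign RNA, were low in every sample. Ifit2 had 0.334, 0.704 and 0.409 FPKM with NBIF and 0.442, 0.302 and 0.282 FPKM with DMSO. Ifit1 did not exceed 0.143 FPKM, and Ifit3 was listed at 0 in 3 of 6 samples with a highest value of 0.283 FPKM. Ifit3 and its neighbour Ifit3b are near copies, with 51.2% of the 50-base windows of Ifit3 found in Ifit3b, so their values are uncertain. Rsad2 (viperin) did not exceed 0.113 FPKM, Mx2 0.138 FPKM, Cmpk2 0.403 FPKM and Ifi47 0.379 FPKM, each with overlapping groups. Mx2 is annotated as a polymorphic pseudogene. Trim30a, the last of the 19, had 0.658, 0.398 and 0.496 FPKM with NBIF, against 0.391, 0.377 and 0.259 FPKM with DMSO, without overlap (adjusted p = 0.198 without a filter).

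**Figure D3:**
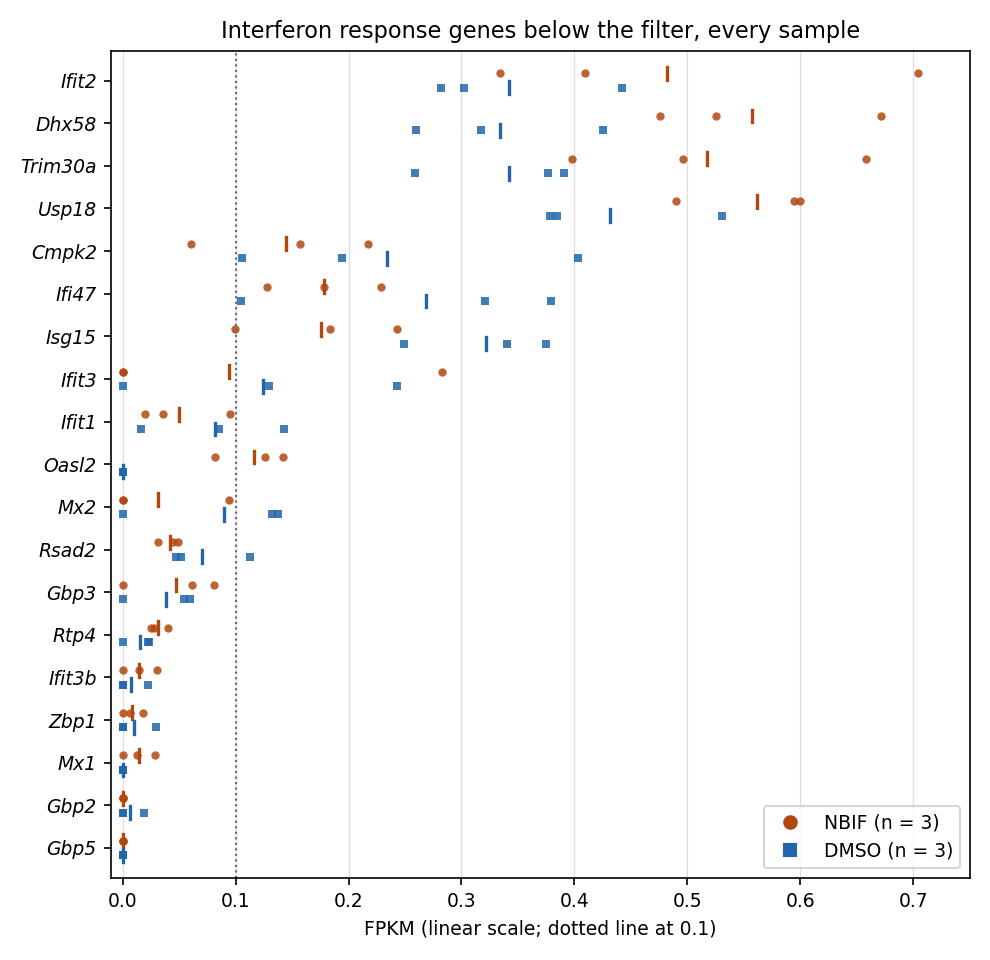
FPKM (linear axis) of the 19 interferon genes below the filter, with circles for NBIF samples above squares for DMSO samples, bars at the means and a dotted line at 0.1 FPKM. Oasl2 is at 0 in all DMSO samples and above 0 in all NBIF samples. Mx1 is also at 0 in all DMSO samples, and in NBIF 3. In all, 7 genes stay left of the line. The NBIF samples of Isg15 lie below its DMSO samples, a difference that did not pass without a filter.

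The interferons themselves were at or near 0. Of 21 ligand genes 19 were listed at 0 in all 6 samples, including Ifng. Ifnb1 was above 0 in DMSO 3 alone (0.0474 FPKM). Of the interferon-induced chemokine genes, Cxcl9 was at 0 throughout and Cxcl10 did not exceed 0.0703 FPKM. Cxcl11 had 0.354, 0.0869 and 0.201 FPKM with NBIF, against 0.775, 0.598 and 0.492 FPKM with DMSO, below the filter.

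The lists of further pathway genes held 143 symbols, of which 142 were in the table and 75 were tested. Of these 15 rose (20.0%), 9 fell (12.0%) and 51 did not pass, with a median log2 change of 0.07; over all tested genes 10.5% were higher and 8.08% lower. Gbp7 and Ikbke among the rises, and Ifi211 among the falls, reached the filter only through the group where they were higher. The count of rises was 7 without NBIF 1 and 8 without NBIF 2, and that of falls was 5 without NBIF 3. Over all tested genes the rises also dropped, from 1047 to 493 without NBIF 1 and 583 without NBIF 2. The falls over all tested genes dropped from 803 to 553 without NBIF 3. In the signalling list, 2 of 8 tested genes rose: Tyk2, a kinase of the type I receptor, by 0.23 (adjusted p = 0.0313) and Stat3 by 0.22 (adjusted p = 0.0285). Jak1 had 43.7, 45.3 and 44.6 FPKM with NBIF, against 43.4, 42.4 and 41.4 FPKM with DMSO (adjusted p = 0.334).

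Of 5 tested genes for other interferon regulatory factors, 1 rose and 1 fell. For this and the other short lists below, the shares over all tested genes were 10.5% higher and 8.08% lower. No list was tested against them. Irf3, the factor that starts interferon transcription after RNA or DNA sensing, had 16.4, 15.5 and 14.8 FPKM with NBIF, against 12.0, 12.2 and 13.1 FPKM with DMSO (log2 change of 0.30, adjusted p = 0.0134). Irf8 had 5.19, 5.19 and 5.80 FPKM with NBIF, against 8.38, 6.88 and 7.30 FPKM with DMSO (log2 change of -0.41, adjusted p = 0.0113). Neither pair of groups overlapped. Among 10 sensing adaptors and kinases, Ikbke (0.41), Aim2 (0.36) and Rnf135 (0.35) rose on the log2 scale. Ticam1 (TRIF, the adaptor of TLR3 and TLR4) fell by 0.31, and 6 did not pass. Ikbke averaged 1.44 FPKM with NBIF and 0.826 FPKM with DMSO, so it reached the filter only through its NBIF samples. Of 5 tested negative regulators 1 rose, the phosphatase gene Ptpn1 (0.34), and Socs1 did not exceed 0.268 FPKM.

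Other interferon-induced genes moved both ways, 8 higher (17.0%) and 7 lower (14.9%) among 47 tested, beside 10.5% and 8.08% of all tested genes. Ly6e, a membrane protein gene that blocks entry of some viruses, had 384, 373 and 379 FPKM in NBIF samples, against 248, 234 and 259 FPKM in DMSO samples, a log2 change of 0.61 (limma adjusted p = 0.000115). Gbp7 (0.53), Nlrc5 (0.44) and Parp10 (0.39) were the next largest rises on the log2(FPKM + 1) scale. By ratio of means Gbp7 rose more (2.12-fold) than Ly6e (1.53-fold). Gbp7 averaged 1.38 FPKM with NBIF and 0.654 FPKM with DMSO, so it reached the filter only through its NBIF samples. Slfn2, a schlafen family gene, had 8.38, 9.25 and 7.95 FPKM in NBIF samples, against 14.8, 14.6 and 15.3 FPKM in DMSO samples, a log2 change of -0.74 (limma adjusted p = 0.000229). Ifi211 averaged 0.749 FPKM with NBIF and 1.72 FPKM with DMSO, so it reached the filter only through its DMSO samples. Its ratio of means (0.435) was lower than that of Slfn2 (0.572). On the log2(FPKM + 1) scale Ifi27l2a (-0.69) and Ifi211 (-0.64) also fell. So did Ifitm3, which blocks virus entry from endosomes, with 76.4, 73.5 and 79.5 FPKM in NBIF samples against 117, 102 and 105 FPKM in DMSO samples (log2 change of -0.49). For Ly6e, Slfn2 and Ifitm3 the groups did not overlap. With a median of 0.04, this list lay at the median of all tested genes.

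**Figure D4:**
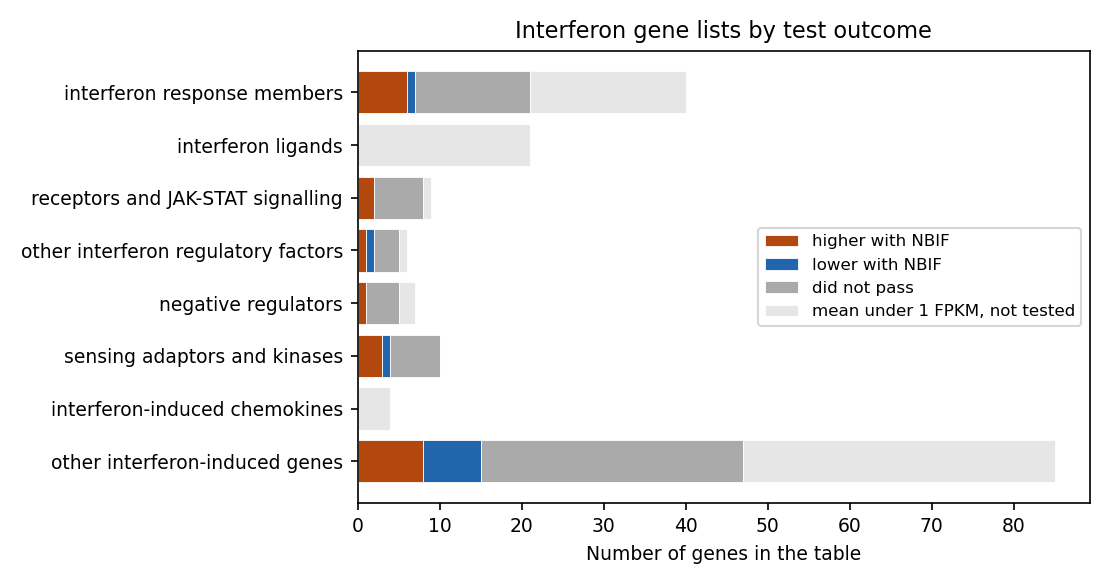
Number of genes in each list that were higher with NBIF, lower with NBIF, did not pass, or had a mean under 1 FPKM and were not tested; the top bar is the 40 interferon genes. All 21 ligand genes and all 4 chemokine genes fell below the filter, and the longest list splits into 8 higher and 7 lower.

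By position, the 40 genes sit on 14 chromosomes, with 8 on chromosome 16 and 5 on chromosome 5. Oas2 and Oas3 lie beside each other, with log2 changes of 0.30 and 1.08, and the difference between them was not tested. On chromosome 19 the 4 Ifit genes were all below the filter.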

How the data were processed

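TRIzol-extracted RNA of RAW264.7 cells was sequenced, per the labels' protocols. Values are FPKM, which the authors deposited as a single table. The submitters' processing notes list, without roles, fastp, CASAVA 1.8, DESeq2 1.20.0, featureCounts 1.5.0-p3 and HISAT2 2.0.5. They name a human build although the symbols are mouse, and nothing in the sources used here gives the gene lengths or strand setting. Depth is unknown, so no counting intervals are given.

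For testing, log2(FPKM + 1) of the 9936 genes averaging 1 FPKM or more went into limma 3.58.1 (R 4.3.3), with a trended prior, two-sided tests, Benjamini-Hochberg adjustment and a threshold of 0.05. The pseudocount understates changes of low genes. The procedure was run on simulated data, with changes planted only in genes of a higher level than the filter requires. That run does not bear on genes near the filter, and its outcome is not given here. The members and lists were chosen with earlier results of these data known. Every member is named; from the other lists, up to 4 passing genes per direction with the largest changes, plus a few fixed genes. Oas1g, Cxcl11 and the per-sample values of Dhx58, Usp18, Ifit2, Oasl2 and Trim30a were added after their values were seen, and 1 fixed gene is not reported here. Gene positions come from GENCODE M21 and promoters from RefSeq, both on GRCm38 and matched by symbol. Transcript windows of 50 bases shared with other genes were counted after seeing the data; protein sequences were not used here. Alternatives were other pseudocounts (0.1 and 5), other filters (none, and 5 FPKM), rescaling to one sum, median-ratio and quantile scaling, a robust prior, a replicate block and the removal of each sample.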

Additional observations from a re-analysis of the deposited data

How the results depend on the processing

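Over 308 recomputed changes of the 21 tested interferon genes, 285 kept their direction and side of the threshold, 13 lost a call, 6 gained one and 4 changed sign. The calls of Oas3, Parp14 and Ddx58 held in all 15 alternatives and that of Irf7 in 14, since the filter at 5 FPKM leaves it out. The sign changes were in genes that never passed: Bst2 was at -0.0032 without NBIF 1 and -0.0047 without DMSO 2, and Xaf1 at 0.05 without NBIF 2 and 0.12 without DMSO 1 (range over removals -0.3 to 0.12). The median log2 change of the interferon genes was 0.27 when 0.1 was added to each FPKM, 0.13 when 5 was added and 0.08 with no filter, where 39 genes enter, and 0.16 to 0.26 when 1 sample was left out. Leaving out 1 sample gave 999 to 1891 changed genes in all (999 without NBIF 1, 1150 without NBIF 2 or without NBIF 3 and 1173 without DMSO 1, against 1850), 0 to 1 interferon genes lower, and among the further pathway genes 13 to 23 changed, 7 to 16 higher and 5 to 9 lower. Over all genes the count was 1426 without DMSO 2 and 1891 without DMSO 3. The cause of these differences was not tested. Over all genes 56.6% of calls were higher, against 40.6% after median-ratio scaling, where 5 interferon genes were higher and 1 lower. The replicate numbers were not taken as pairs, since correlations of deviations were 0.0784, 0.126 and 0.0355 for numbers 1, 2 and 3, not all over 0.1. NBIF 2 and NBIF 3 correlated best with their own number, and NBIF 1 with DMSO 3 (0.0974). With the replicate block 1632 genes changed, among them 6 interferon genes higher, with Ifi35 gained (adjusted p = 0.0325) and Irf9 lost (0.0655). Values near 0 are few fragments, and the number of fragments behind them is unknown.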

Other observations

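Sample 1 of each group was the highest of its 3 for 5 of the 21 tested interferon genes (Irf9, Irf7, Ifih1, Parp14 and Xaf1), beside 9.47% of all 9936 tested genes. The pattern was noticed after the values were seen, the labels do not say that the numbers mark a shared culture or day, and it was not tested. Sample 2 was highest in both groups for 2 of the 21 (15.7% of all genes) and sample 3 for 1 (8.19%).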
